A study of Mus musculus with 21 samples.

Results

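Transcript levels of 6 nonclassical major histocompatibility complex (MHC) class I genes, H2-M2, H2-M3, H2-T22, H2-T23, H2-Q1 and Cd1d1, were followed through mouse lung and lung tumours. They were chosen by gene symbol from a deposited table of 38924 symbols, and all 6 were found in it and passed the filter on low counts that left 15770 genes for testing. The choice was made with earlier results of these data known, among them the levels in the LPS libraries. Those levels are therefore given as a description, with no test. The mice were female A/J, the tissue was lung, and the time point was 22 weeks after treatment. Each of 7 groups had 3 libraries. Control mice received vehicle and NNK mice a single intraperitoneal dose of 100 mg/kg NNK, a nicotine-derived carcinogen of tobacco. LPS mice received vehicle and then 5 µg lipopolysaccharide, a bacterial cell wall product, by the intranasal route weekly from week 1. NNK_LPS mice received both. The other 3 groups were NNK_LPS mice whose diet held Sil (silibinin) at 20 µmol/g, I3C (indole-3-carbinol) at 20 µmol/g, or both, written NNK_LPS_Sil, NNK_LPS_I3C and NNK_LPS_Sil_I3C.

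Class I molecules are a heavy chain bound to beta-2 microglobulin, and the classical ones, H2-K1 and H2-D1, show peptides from inside the cell to CD8 T cells. The nonclassical ones vary little between strains and present narrower sets of ligands. H2-M3 binds peptides that begin with formylmethionine, as bacterial and mitochondrial proteins do. H2-T23, also called Qa-1, presents leader peptides of other class I chains to the CD94 and NKG2 receptors of NK cells. H2-T22 is bound directly by a subset of gamma delta T cells, and Cd1d1, which lies outside the MHC, shows lipids to NKT cells. H2-Q1 and H2-M2 belong to the Q and M regions of the mouse MHC, and their ligands are less well known. Type I and II interferons and NF-kB act on the promoters of many class I genes.

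Per the labels, RNA of every group given NNK came from dissected tumours pooled from 3 mice a group, whereas Control and LPS RNA came from normal lung. The labels do not say if a group's libraries share a pool. Tumour tissue and NNK can therefore not be told apart in any comparison between these kinds of sample, and the p-values measure the spread between libraries, which may be partly technical. In bulk RNA, fewer cells of a type and less RNA per cell cannot be told apart either. Total counts ran from 13305504 to 25276293 per library. Summed alveolar type 2 markers, which mark lung, stood between 20994 and 68249 CPM (1000000 times the count over the normalised library size) in all 21 libraries. The libraries stood apart in 3 sets by the mt-Atp8 count divided by that of mt-Atp6 and by the order numbers in the sample titles. Set A, with ratios of 0.0206 to 0.0236, held Control, NNK, LPS 1 and LPS 2. Set B, at 0.0782 to 0.0876, held LPS 3, NNK_LPS, NNK_LPS_Sil and NNK_LPS_I3C 1, and set C, at 0.117 to 0.135, held the other 5 libraries. NNK against Control and NNK_LPS_Sil against NNK_LPS lay within a set, whereas NNK_LPS shared no set with Control, NNK or NNK_LPS_Sil_I3C.

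In the GRCm38 assembly, which is the mm10 build named in the submitters' processing notes, 5 of the genes lie on chromosome 17. H2-Q1 spans 35320405 to 35325099 on the plus strand, H2-T23 36029773 to 36032855 and H2-T22 36037128 to 36042747 on the minus strand, H2-M3 37270220 to 37274484 on the plus strand and H2-M2 37480851 to 37483552 on the minus strand. Cd1d1 lies on chromosome 3, from 86995834 to 86999441 on the minus strand. All 6 are annotated as protein coding. Promoter sequences from RefSeq (GRCm38.p6), from 250 bases before to 50 bases after the start of transcription, were found for 4 of them. They are shown as background on where interferon and NF-kB can act, and the part of such motifs in the levels was not tested. Capitals mark matches to AANNGAAA (the core of an interferon-regulatory factor element), GGGNNTTCC (NF-kB) and TGATGAC (like a cyclic AMP response element), searched on both strands. The motifs were chosen after the promoters were read.

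H2-M2, chr17:37483505-37483804, minus strand: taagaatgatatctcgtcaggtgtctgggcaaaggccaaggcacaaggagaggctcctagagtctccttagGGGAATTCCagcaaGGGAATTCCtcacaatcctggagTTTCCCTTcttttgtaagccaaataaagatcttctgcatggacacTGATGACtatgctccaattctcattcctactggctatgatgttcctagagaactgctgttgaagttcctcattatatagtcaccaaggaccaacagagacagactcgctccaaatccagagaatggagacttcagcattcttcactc
H2-M3, chr17:37269984-37270283, plus strand: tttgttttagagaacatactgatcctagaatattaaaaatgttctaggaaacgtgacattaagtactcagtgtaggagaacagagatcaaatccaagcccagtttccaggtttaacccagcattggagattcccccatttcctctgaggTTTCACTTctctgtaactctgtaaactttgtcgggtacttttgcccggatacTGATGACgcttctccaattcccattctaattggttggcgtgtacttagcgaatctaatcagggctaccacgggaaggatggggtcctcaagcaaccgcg
H2-T22, chr17:36042693-36042992, minus strand: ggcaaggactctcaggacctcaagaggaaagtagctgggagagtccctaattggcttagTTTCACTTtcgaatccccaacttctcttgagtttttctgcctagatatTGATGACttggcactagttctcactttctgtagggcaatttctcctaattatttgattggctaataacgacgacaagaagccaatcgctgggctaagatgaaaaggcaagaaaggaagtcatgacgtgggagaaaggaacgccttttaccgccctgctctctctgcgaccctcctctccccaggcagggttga
H2-T23, chr17:36032652-36032951, minus strand: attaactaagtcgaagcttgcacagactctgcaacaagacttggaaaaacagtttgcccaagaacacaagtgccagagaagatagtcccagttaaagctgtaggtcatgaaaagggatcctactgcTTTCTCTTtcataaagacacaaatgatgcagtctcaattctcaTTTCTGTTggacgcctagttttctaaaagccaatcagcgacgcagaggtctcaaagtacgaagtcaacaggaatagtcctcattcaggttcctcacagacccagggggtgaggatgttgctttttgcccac

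H2-M2 held 2 identical NF-kB matches, 179 to 171 and 165 to 157 bases before the start, and none was in the other 3 windows. An NF-kB match was present in 5.82% of 32851 promoters of this length. Every window of the 4 held the interferon-regulatory core, at 142 to 135 bases before the start in H2-M2, 101 to 94 in H2-M3, 191 to 184 in H2-T22, and at both 124 to 117 and 81 to 74 in H2-T23. That core was in 23.9% of all promoters. H2-M2, H2-M3 and H2-T22 each held TGATGAC, at 97 to 91, 49 to 43 and 143 to 137 bases before the start, and 3.23% of all promoters did. No 2 of these matches overlapped. These are matches of letters only, and binding was not measured.

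H2-M2 had the widest range of the 6 genes, from 1.14 to 313 CPM. It stood at 1.14, 1.21 and 1.87 CPM in Control 1, 2 and 3, the lowest of these resting on 15 counts. In NNK tumours the values were 8.29, 5.54 and 30.2 CPM, and all 3 lay above all of Control, with NNK 3 apart from the others. LPS lung stood at 258, 313 and 274 CPM, above every other library of the study. NNK_LPS tumours held 67.8, 30.04 and 46.5 CPM, between NNK and LPS, with NNK_LPS 2 just below NNK 3. The diet groups spread widely, at 74.8, 71.2 and 47.5 CPM with Sil, 186, 56.5 and 147 CPM with I3C and 84.3, 109 and 17.1 CPM with both. Neighbours in the order of group means overlapped from NNK up to NNK_LPS_I3C, and only Control at the bottom and LPS at the top were clear of the next group.

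H2-M3, the presenter of formylated peptides, stood at 20.3, 20.2 and 30.3 CPM in Control and 22.3, 33.7 and 39.9 CPM in NNK, ranges that overlapped. It stood at 97.9, 93.6 and 101 CPM in LPS, clear of all other groups. NNK_LPS held 44.8, 35.2 and 46.0 CPM, NNK_LPS_Sil 36.5, 44.4 and 34.8 CPM, NNK_LPS_I3C 43.7, 35.1 and 51.1 CPM and NNK_LPS_Sil_I3C 49.3, 62.5 and 41.0 CPM. These 4 groups overlapped each other.

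H2-T23, the ligand of CD94 and NKG2 receptors, had a like order, with 22.9, 25.3 and 44.7 CPM in Control, 36.6, 48.5 and 61.9 CPM in NNK and 177, 158 and 210 CPM in LPS. LPS was again clear of the rest, and Control 3 lay above NNK 1. In NNK_LPS it stood at 89.1, 67.8 and 78.9 CPM, all above NNK. With Sil it stood at 62.1, 79.4 and 50.3 CPM, with I3C at 76.2, 53.0 and 79.5 CPM and with both at 79.1, 88.3 and 67.3 CPM, each overlapping NNK_LPS.

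H2-T22, the ligand of gamma delta T cells, stood at 12.1, 12.1 and 17.8 CPM in Control, 14.8, 18.4 and 22.4 CPM in NNK and 51.6, 48.5 and 78.0 CPM in LPS. Unlike the preceding 3 genes it was not highest in LPS: NNK_LPS_Sil_I3C, at 64.8, 75.5 and 53.2 CPM, had the higher mean, with overlap. NNK_LPS held 44.9, 38.8 and 45.1 CPM, NNK_LPS_Sil 39.4, 46.3 and 35.3 CPM and NNK_LPS_I3C 42.9, 50.3 and 65.4 CPM. The 21 libraries thus fell apart in 2 blocks, Control and NNK up to 22.4 CPM and all others from 35.3 CPM.

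H2-Q1 showed the same division, with 8.12, 8.55 and 10.5 CPM in Control and 7.96, 10.9 and 11.2 CPM in NNK, against 15.4 CPM or more in every other library. It stood at 27.9, 24.9 and 41.8 CPM in LPS, where LPS 3 was well above LPS 1 and 2. NNK_LPS held 22.8, 21.2 and 18.9 CPM and NNK_LPS_Sil 18.6, 21.6 and 15.4 CPM. NNK_LPS_I3C held 21.4, 23.9 and 28.1 CPM, and NNK_LPS_Sil_I3C, at 29.5, 34.7 and 29.5 CPM, lay above it without overlap.

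Cd1d1, the lipid presenter, in NNK and NNK_LPS tumours lay within or close to its Control range. It stood at 9.94, 10.5 and 13.8 CPM in Control, 8.89, 11.6 and 14.2 CPM in NNK and 15.4, 11.3 and 14.5 CPM in NNK_LPS, and these 3 groups overlapped. LPS held 42.5, 46.0 and 50.7 CPM, clear of every other library. NNK_LPS_Sil held 15.3, 19.8 and 7.80 CPM, NNK_LPS_I3C 30.8, 15.0 and 24.97 CPM and NNK_LPS_Sil_I3C 19.4, 27.0 and 11.6 CPM. The 3 diet groups overlapped each other.

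**Figure D1:**
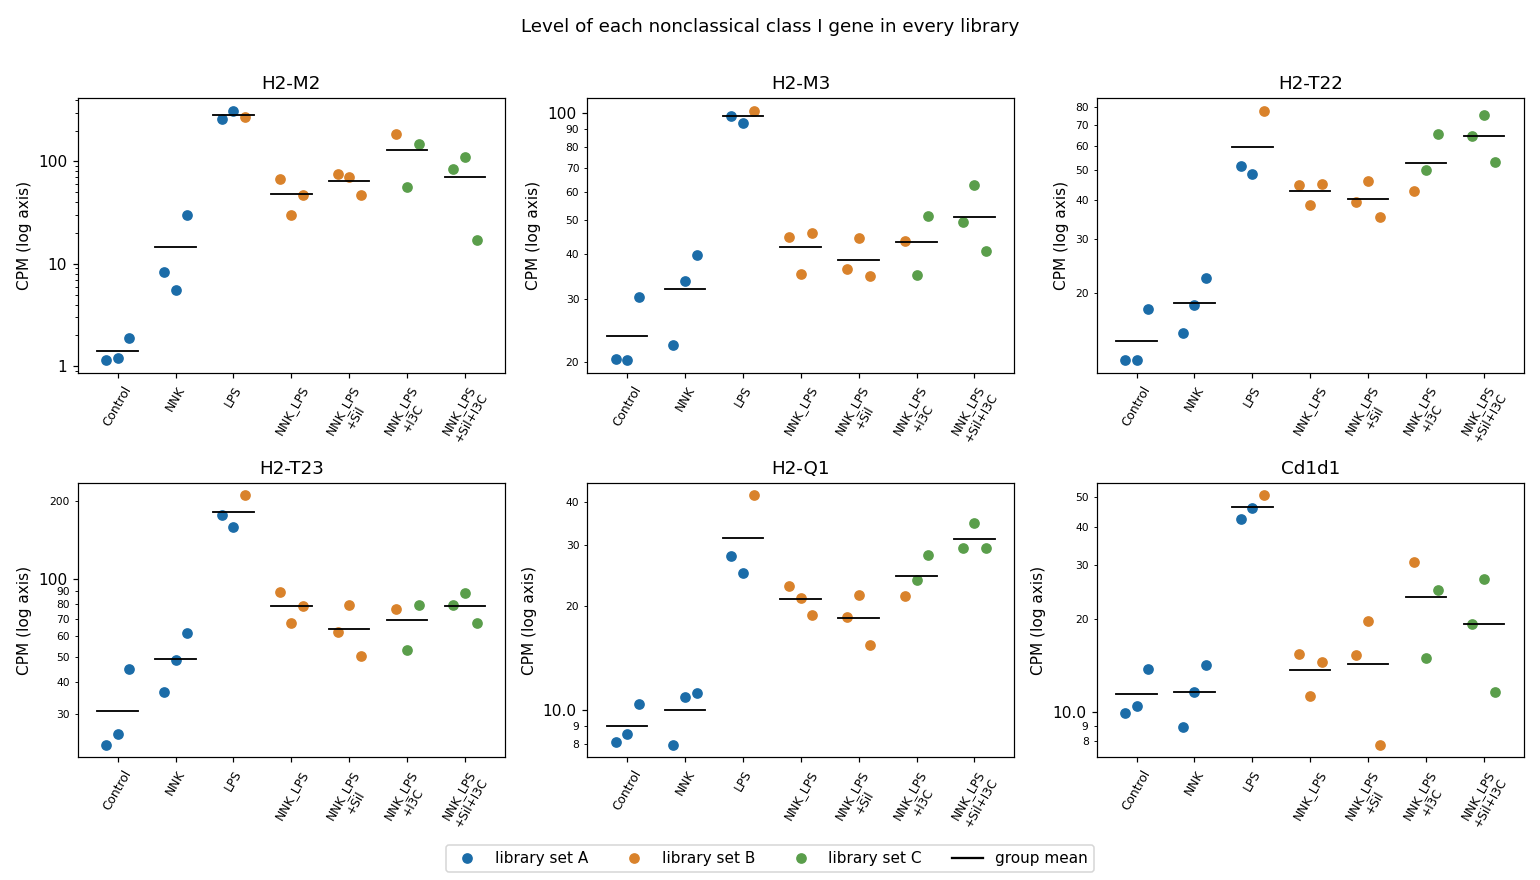
Level of each of the 6 genes in CPM (log axis) in every library, grouped by treatment; points are libraries coloured by library set and bars are group means. LPS lung was clear of all other groups for H2-M2, H2-M3, H2-T23 and Cd1d1, while H2-T22 and H2-Q1 separated Control and NNK from all other groups.

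Per kilobase of exon, which allows levels to be set beside each other between genes, H2-M3 was the most abundant in Control at 16.4 ± 4.05 CPM per kb (SD, n = 3). H2-T23 followed at 10.7 ± 4.15, then Cd1d1 at 4.44 ± 0.818, H2-T22 at 4.11 ± 0.961, H2-Q1 at 3.16 ± 0.435 and H2-M2 at 0.908 ± 0.260 CPM per kb. In LPS lung H2-M2 changed from last to first place in this order, at 182 ± 18.1 CPM per kb. H2-M3 stood there at 67.8 ± 2.63 and H2-T23 at 62.9 ± 9.09 CPM per kb, closer to each other than their spread, and Cd1d1, H2-T22 and H2-Q1 stood between 11.0 and 18.1 CPM per kb. Within groups, the 6 genes often ranked the libraries alike. Control 3, NNK 3 and NNK_LPS_Sil_I3C 2 were the highest of their group for all 6 genes, and NNK_LPS_Sil 3 was the lowest of its group for all 6.

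LPS lung against Control, the comparison whose values were known when the genes were chosen, had all 6 genes higher in every LPS library than in any Control library. Of all genes tested, 30.4% were higher without overlap in this comparison. The log2 difference was 7.63 ± 0.87 (SE) for H2-M2, a 198-fold higher level. It was 2.55 ± 0.26 for H2-T23, 2.08 ± 0.22 for H2-T22, 2.04 ± 0.22 for H2-M3, 2.02 ± 0.34 for Cd1d1 and 1.80 ± 0.19 for H2-Q1. Within library set A, that is without LPS 3, the same differences were 7.66, 2.44, 1.84, 2.03, 1.97 and 1.55. The genes' median was 2.06, beside -0.02 over all genes. Class I assembly genes were higher too, 15 of 15 without overlap. B2m, the shared light chain, stood at 1195 ± 182 CPM in Control and 5502 ± 469 CPM in LPS (SD, n = 3). Nlrc5, the transactivator of class I genes, stood at 28.0 ± 22.6 and 295 ± 40.5 CPM, and Tap1, a chain of the peptide transporter, at 55.6 ± 34.8 and 533 ± 63.8 CPM. Of 17 tested class I relatives, 11 were higher and 4 lower without overlap, with H2-K1 at 628 ± 119 against 3711 ± 456 CPM and H2-D1 at 768 ± 130 against 3771 ± 427 CPM. Many leukocyte markers were also higher in LPS lung. The summed macrophage, monocyte and dendritic cell markers ran from 541 to 678 CPM in Control and from 1692 to 1877 CPM in LPS, with 9 of 13 higher and 2 lower without overlap. T and NK cell markers ran from 51.5 to 90.1 CPM and from 186 to 235 CPM, with 8 of 12 higher. B and plasma cell markers ran from 52.5 to 205 CPM and from 1268 to 2210 CPM, with 3 of 8 higher, beside 30.4% of all genes. Most of the sum in LPS was Igj, with a mean of 39.0 CPM in Control and 1610 CPM in LPS. Other markers of this list differed far less, such as Pax5 (2.23 and 2.54 CPM), Cd79b (27.1 and 36.2 CPM) and Ms4a1 (10.7 and 17.4 CPM). Neutrophil markers ran from 32.2 to 96.1 CPM and from 811 to 1033 CPM, with 6 of 6 higher, and of them Ly6g had 0 counts in Control. No other marker of these lists was at 0 in either group. Other lists were lower in LPS lung. The share of all genes lower without overlap is not given here, so these counts have nothing to be set beside. Endothelial markers ran from 3904 to 4141 CPM in Control and from 1695 to 1949 CPM in LPS, with 8 of 8 lower without overlap. Alveolar type 1 and club cell markers ran from 39843 to 43490 CPM and from 16426 to 20547 CPM, with 8 of 9 lower and 1 higher. Heart muscle markers ran from 496 to 533 CPM and from 91.9 to 136 CPM, with 7 of 8 lower, and 5 of 8 alveolar type 2 markers were lower and 1 higher. The part of these cells in the levels of the 6 genes was not tested.

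The LPS group was split between library sets, which allowed each gene to be checked for a step between them, taken as log2 CPM in LPS 3 minus the mean of LPS 1 and LPS 2. Over all genes the median absolute step was 0.14. The step was -0.05 for H2-M2, 0.08 for H2-M3 and 0.20 for Cd1d1, and 35.2% and 19.0% of all genes had a step at least as high as the latter pair. For H2-T23 it was 0.33, and 9.76% of genes were at or above it. H2-T22 and H2-Q1 stood further out, at 0.64 and 0.66, with 3.14% and 2.89% of genes at or above them, while LPS 1 and LPS 2 differed by 0.09 and 0.16 in these genes. B2m had a step of 0.19 and mt-Atp8, which helped define the sets, one of 1.86. NNK_LPS_I3C was the other split group, and its set C libraries minus its set B library gave 0.42 for H2-T22, 0.27 for H2-Q1, -0.05 for H2-M3, -0.23 for H2-T23, -0.67 for Cd1d1 and -1.03 for H2-M2. This difference rests on 1 set B library, and 7.85% and 15.5% of all genes were at or above H2-T22 and H2-Q1 in it.

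**Figure D2:**
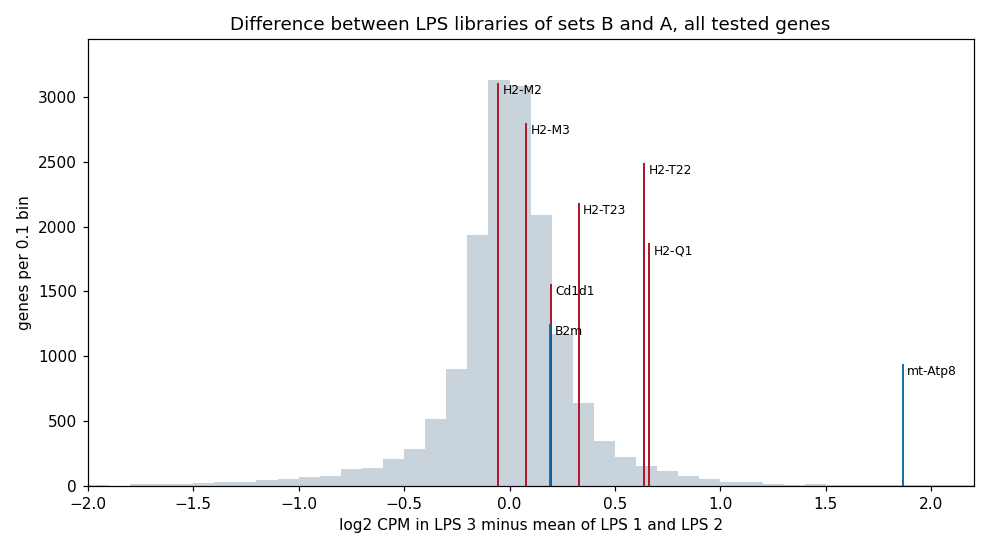
Histogram of the difference in log2 CPM between LPS 3 (set B) and the mean of LPS 1 and LPS 2 (set A) over all 15770 tested genes, in bins of 0.1, with the few genes farther out not drawn; vertical lines mark the 6 genes (red) and B2m and mt-Atp8 (blue), and line heights only make room for the names. H2-M2, H2-M3 and Cd1d1 lie in the bulk of the genes, and H2-T22 and H2-Q1 at 0.64 and 0.66 in its upper tail.

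H2-T22 and H2-Q1 also have close copies in the genome, whose reads a counting method may divide differently. Of 50-base windows of annotated H2-T22 transcripts, 53.5% were also found in transcripts of other genes, mainly H2-T10 (31.2%) and A930015D03Rik (26.5%). The latter is an antisense gene that overlaps both H2-T22 and H2-T23, and its level was low, at 1.51 to 2.81 CPM by group mean. The share was 19.1% for Cd1d1 (all with Cd1d2), 15.0% for H2-Q1 (9.05% with H2-Q2), 14.5% for H2-T23, 1.61% for H2-M2 and 0.576% for H2-M3. H2-T10 had a step of 0.03 and H2-Q2 one of -0.45 between the LPS sets. With the counts of the copies added, the step was 0.25 for H2-T22 with H2-T10 and 0.22 for H2-Q1 with H2-Q2, against 0.64 and 0.66 alone, and 0.21 for Cd1d1 with Cd1d2. The library kit does not mark strand, and how reads that fit several genes were counted is not given in the sources used here. A/J mice carry another haplotype of the MHC than the reference strain, and its part in the levels was not tested.

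NNK tumours were compared with Control within library set A by edgeR's quasi-likelihood test, with p-values adjusted by Benjamini-Hochberg over all 15770 genes and a gene called at an adjusted p under 0.05. One of the 6 genes was called, H2-M2, where 13.1% of all genes were called and 6.46% called higher. The Control libraries of this comparison had entered the choice of the genes, so the test is not independent of that choice. H2-M2 rose by a log2 fold change of 3.37 ± 0.86 (SE, adjusted p = 0.0210), in 3 of 3 tumour libraries. The call was lost without NNK 3, where it was 2.30 ± 0.85 (adjusted p = 0.107), and without Control 1 or Control 2, where it was 3.28 (adjusted p = 0.0704) and 3.29 (adjusted p = 0.0862). H2-T23 had 0.66 ± 0.25 (adjusted p = 0.0914) and was called in 2 other fits, without Control 3 at 1.04 ± 0.24 (adjusted p = 0.0150) and in DESeq2 at 0.68 ± 0.25 (adjusted p = 0.0391). H2-M3, H2-T22 and H2-Q1 lay at 0.43 ± 0.22, 0.40 ± 0.22 and 0.15 ± 0.19, and Cd1d1 at 0.02 ± 0.34, with adjusted p from 0.186 to 0.982. The 95% interval of Cd1d1 ran from -0.72 to 0.75. The genes' median was 0.42, beside -0.02 over all genes. Among the 17 class I relatives 5 rose, including H2-D1 at 0.88 ± 0.16 (adjusted p = 0.00475) and H2-K1 at 0.85 ± 0.18 (adjusted p = 0.00931), and 2 fell, Fcgrt, the neonatal Fc receptor, by 0.36 (adjusted p = 0.0265) and Hfe, a regulator of iron uptake, by 0.27 (adjusted p = 0.0477). None of the 15 assembly genes was called by edgeR, 2 had an unadjusted p under 0.05, and DESeq2 called 1. Over all 15770 genes, 4753 had an unadjusted p under 0.05, and DESeq2 called 2648. B2m had 0.33 ± 0.16 (adjusted p = 0.168), Tap1 0.74 ± 0.37 (adjusted p = 0.193) and Nlrc5 0.94 ± 0.47 (adjusted p = 0.192). Of 10 genes of CD1d lipid loading 4 rose, among them Cd74, the invariant chain, at 1.17 ± 0.19 (adjusted p = 0.00308) and Npc2, a lysosomal lipid carrier, at 0.48 ± 0.12 (adjusted p = 0.0186). Summed neutrophil markers ran from 75.9 to 542 CPM in NNK against 32.2 to 96.1 CPM in Control, so the ranges overlapped. Of these markers 5 of 6 were called higher, and 2 of 6 were higher without overlap. Alveolar type 2 markers ran from 43804 to 52022 CPM against 30460 to 36428 CPM in Control, with 6 of 8 called higher. Heart muscle markers, 114 to 250 CPM in NNK, were called lower in 7 of 8 cases, and alveolar type 1 and club cell markers, 21134 to 28994 CPM, in 5 of 9. Of macrophage, monocyte and dendritic cell markers 2 of 13 were called higher, and of B and plasma cell markers 1 of 8. The part of these cells was not tested.

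NNK_LPS tumours against Control had 5 of the 6 genes called higher, where 12.0% of all genes were called higher and 24.6% in either direction. This comparison used the Control libraries that also entered the choice of the genes, and its 2 groups shared no library set. H2-M2 rose by a log2 fold change of 5.08 ± 0.84 (adjusted p = 0.000894), H2-T22 by 1.61 ± 0.22 (adjusted p = 0.000211) and H2-T23 by 1.34 ± 0.25 (adjusted p = 0.00178). H2-Q1 rose by 1.21 ± 0.19 (adjusted p = 0.000493) and H2-M3 by 0.83 ± 0.21 (adjusted p = 0.0107), each in 3 of 3 libraries. Cd1d1 was not called, at 0.26 ± 0.34 (adjusted p = 0.592), with a 95% interval from -0.46 to 0.99. The 5 calls held when any 1 library was left out. A term for library set, which takes the difference between sets from the 2 split groups, left none of them. Under it H2-M2 had 5.14 ± 1.39 (adjusted p = 0.102), H2-M3 0.75 ± 0.40 (adjusted p = 0.381) and H2-T23 1.02 ± 0.46 (adjusted p = 0.304). H2-T22 had 0.97 ± 0.32 (adjusted p = 0.164) and H2-Q1 0.55 ± 0.27 (adjusted p = 0.334). Calls over all genes went from 3876 to 24 with that term. The genes' median was 1.28, beside -0.02 over all genes. Of the 17 relatives 8 rose and 2 fell, H2-T24 and Hfe, with H2-K1 at 1.62 ± 0.19 (adjusted p = 9.21e-05), H2-D1 at 1.43 ± 0.16 (adjusted p = 8.49e-05) and H2-Bl at 2.27 ± 0.40 (adjusted p = 0.00129). Of 15 assembly genes 6 rose, among them B2m at 1.02 ± 0.16 (adjusted p = 0.000463), Tap1 at 1.22 ± 0.37 (adjusted p = 0.0261), Nlrc5 at 1.63 ± 0.47 (adjusted p = 0.0205) and Psmb8, an immunoproteasome subunit, at 0.93 ± 0.22 (adjusted p = 0.00720). Erap1, which trims peptides for class I, fell by 0.25 (adjusted p = 0.0237). Of the 10 CD1d loading genes 3 rose, among them Npc2 at 0.92 ± 0.12 (adjusted p = 0.000159) and Cd74 at 1.55 ± 0.19 (adjusted p = 0.000135). Markers of other cells moved as well. T and NK cell markers, 81.7 to 133 CPM in NNK_LPS, were called higher in 5 of 12 cases, B and plasma cell markers, 692 to 1608 CPM, in 3 of 8, and alveolar type 2 markers, 49199 to 68249 CPM, in 7 of 8. Macrophage, monocyte and dendritic cell markers were called higher in 3 and lower in 2 of 13 cases. None of the 6 neutrophil markers was called by edgeR or DESeq2 or had an unadjusted p under 0.05. Endothelial markers fell in 6 of 8 cases, alveolar type 1 and club cell markers in 5 of 9 and heart muscle markers in 8 of 8. The part of these cells was not tested.

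The LPS effect among tumours, NNK_LPS against NNK, had 2 of the 6 genes called, H2-T22 and H2-Q1, where 0.0951% of all genes were called, 15 in number. The 6 genes were chosen with earlier results of these data known, so this test is not independent of that choice. H2-T22 rose by 1.21 ± 0.22 (adjusted p = 0.0412) and H2-Q1 by 1.06 ± 0.19 (adjusted p = 0.0409), each with all NNK_LPS libraries above all NNK libraries. The 2 groups lay in different library sets. Under the library set term H2-T22 had 0.57 ± 0.32 (adjusted p = 0.937) and H2-Q1 0.40 ± 0.27 (adjusted p = 0.942). With the counts of the close copies added they had 0.68 ± 0.17 (adjusted p = 0.0920) and 0.66 ± 0.15 (adjusted p = 0.0729). Neither was called when NNK 1, NNK 2, NNK 3, NNK_LPS 1 or NNK_LPS 2 was left out, with adjusted p from 0.0655 to 0.274, nor when the 2 groups were fitted alone, at 1.202 (adjusted p = 0.0649) and 1.054 (adjusted p = 0.0769). Of the 15 called genes, 8 had a step between the LPS sets in the direction of their change, H2-T22 and H2-Q1 among them. In either direction, 5 of the 15 had an absolute step in the top 10% of all genes, again with H2-T22 and H2-Q1 among them. The 4 other class I genes were not called. H2-M2 had 1.71 ± 0.64 (adjusted p = 0.212), H2-T23 0.68 ± 0.25 (adjusted p = 0.197), H2-M3 0.40 ± 0.21 (adjusted p = 0.373) and Cd1d1 0.25 ± 0.34 (adjusted p = 0.772). The genes' median was 0.87, beside 0.01 over all genes. None of 17 relatives and none of 15 assembly genes was called by edgeR here. At an unadjusted p under 0.05 there were 8 and 2, beside 2517 of all genes, and DESeq2 called 3 and 1. The values were, for B2m, 0.69 ± 0.16 (adjusted p = 0.0722), H2-K1 at 0.77 ± 0.18 (adjusted p = 0.0741), H2-D1 at 0.55 ± 0.16 (adjusted p = 0.118), Tap1 at 0.49 ± 0.37 (adjusted p = 0.549) and Nlrc5 at 0.70 ± 0.46 (adjusted p = 0.480). Of 13 macrophage, monocyte and dendritic cell markers 1 rose, Ly6c2, a surface marker of inflammatory monocytes, at 1.41 ± 0.17 (adjusted p = 0.00417). Their sum ran from 739 to 769 CPM in NNK and from 777 to 939 CPM in NNK_LPS. No marker of the other cell lists was called by edgeR. None of 6 neutrophil markers had a positive change (median -1.66), and 3 had an unadjusted p under 0.05. None of 8 endothelial markers (median -0.45, 4 at that level) or 8 heart muscle markers (median -0.94, 2 at that level) was positive either. Positive changes were found in 8 of 12 T and NK cell and 7 of 8 alveolar type 2 markers. The part of these cells in the levels was not tested.

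**Figure D3:**
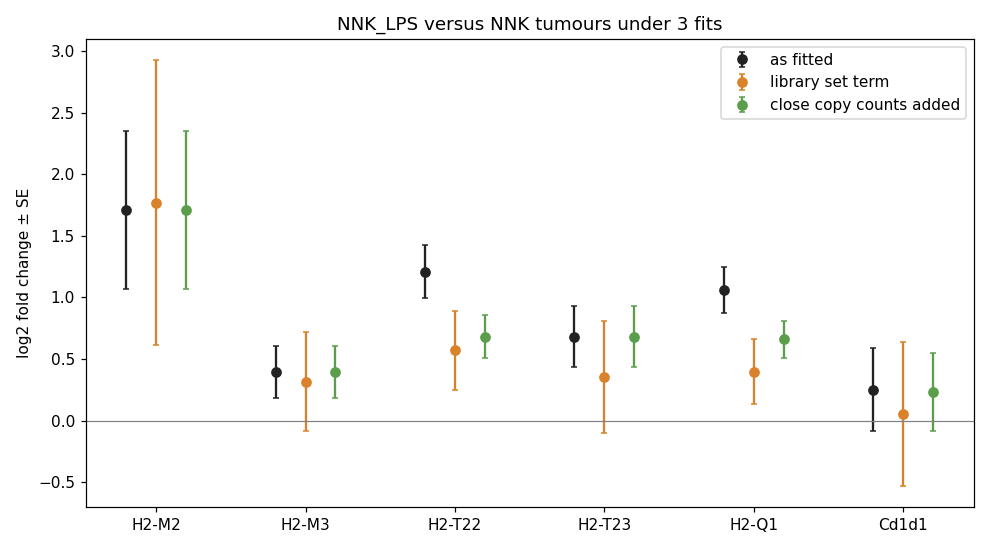
Log2 fold change ± SE of each gene between NNK_LPS and NNK tumours (n = 3 each) as fitted, with a term for library set, and with the counts of close copies added to H2-T22, H2-Q1 and Cd1d1. H2-T22 went from 1.21 to 0.57 and 0.68 and H2-Q1 from 1.06 to 0.40 and 0.66, while H2-M2 stayed between 1.71 and 1.77 with a wider error under the set term.

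NNK_LPS tumours against LPS lung, again with LPS values known beforehand and no test, had all 6 genes lower in every tumour library than in any LPS library, as did 27.4% of all genes. The log2 difference was -2.55 ± 0.63 for H2-M2, -1.76 ± 0.33 for Cd1d1, -1.21 ± 0.21 for H2-M3, -1.21 ± 0.25 for H2-T23, -0.59 ± 0.18 for H2-Q1 and -0.47 ± 0.21 for H2-T22. Against LPS 3 alone, which shares set B with NNK_LPS, H2-T22 and H2-Q1 differed by -0.84 and -0.98, H2-M2 by -2.49, Cd1d1 by -1.87, H2-T23 by -1.40 and H2-M3 by -1.25. This comparison and LPS against Control share the LPS libraries. The 15 assembly genes were lower without overlap in 15 cases, B2m by a log2 difference of -1.18 ± 0.16, Tap1 by -2.03 ± 0.38 and Nlrc5 by -1.76 ± 0.46. Of 17 relatives 10 were lower and 2 higher without overlap. Cell markers differed too: 5 of 6 neutrophil, 8 of 12 T and NK cell, 1 of 8 B and plasma cell and 8 of 13 macrophage, monocyte and dendritic cell markers were lower, and 2 of the last list were higher. Alveolar type 2 markers were higher in 7 of 8 cases, and alveolar type 1 and club cell markers higher in 6 and lower in 1 of 9. Endothelial markers were higher in 2 of 8 and heart muscle markers lower in 2 of 8. The share of all genes higher without overlap is not given here to set beside the higher counts. The part of these cells was not tested.

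None of the 6 genes was called by edgeR in NNK_LPS_Sil against NNK_LPS, and DESeq2 called none either. At an unadjusted p under 0.05 there were 0 of the 6, and 578 of all genes, of which 0% were called after adjustment. The log2 fold changes ran from -0.30 ± 0.25 for H2-T23 to 0.42 ± 0.60 for H2-M2, each with an adjusted p of 1.00. The 95% intervals allowed changes from -0.82 to 0.23 for H2-T23 and from -0.87 to 1.71 for H2-M2. Both groups lay in set B. None of the 17 relatives, 15 assembly genes, 10 CD1d loading genes, 12 receptors and 11 regulators was called by either tool, and 0 of each had an unadjusted p under 0.05.

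With I3C, 2.02% of all genes were called against NNK_LPS and none of the 6 class I genes, in edgeR or in DESeq2. At an unadjusted p under 0.05 there were 2 of the 6, and 3251 of all genes. H2-M2 had a log2 fold change of 1.43 ± 0.61 (adjusted p = 0.195, 95% interval 0.13 to 2.73) and Cd1d1 one of 0.78 ± 0.33 (adjusted p = 0.193, 0.07 to 1.48). The other 4 lay between -0.18 and 0.30. NNK_LPS_I3C was split between sets B and C, while NNK_LPS lay in set B. Under the library set term H2-M2 had 1.95 ± 0.80 (adjusted p = 0.238) and Cd1d1 1.16 ± 0.44 (adjusted p = 0.210), while H2-T22 went from 0.30 to 0.00055 ± 0.25 and H2-Q1 from 0.22 to 0.03 ± 0.21. Heart muscle markers, which can mark heart tissue taken with lung, were called higher in 8 of 8 cases, with sums of 362 to 517 CPM against 83.3 to 154 CPM in NNK_LPS. Of 8 alveolar type 2 markers 5 fell. Of the pathway genes 1 was called by edgeR, Npc2, which fell by 0.56 (adjusted p = 0.0352). The part of either in the levels of H2-M2 and Cd1d1 was not tested.

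With both agents, edgeR called 1.36% of all genes against NNK_LPS, and neither edgeR nor DESeq2 called any of the 6. Of all genes 2602 had an unadjusted p under 0.05, as did 2 of the 6. These were H2-T22 at 0.59 ± 0.21 (adjusted p = 0.168, 95% interval 0.14 to 1.03) and H2-Q1 at 0.57 ± 0.18 (adjusted p = 0.120, 0.19 to 0.96), whose libraries all lay above those of NNK_LPS. The groups lay in sets C and B. Under the library set term the values were 0.16 ± 0.31 for H2-T22 and 0.30 ± 0.26 for H2-Q1, and with close copies added 0.40 ± 0.17 and 0.21 ± 0.14. The same set term raised H2-M2 from 0.54 to 1.41 ± 1.08 (adjusted p = 0.802) and Cd1d1 from 0.49 to 1.11 ± 0.58 (adjusted p = 0.689). H2-T23 stood at -0.01 ± 0.24, H2-M3 at 0.28 ± 0.21, Cd1d1 at 0.49 ± 0.33 and H2-M2 at 0.54 ± 0.60, with adjusted p from 0.482 to 0.995. No relative and no CD1d loading gene was called by edgeR, and 3 of each had an unadjusted p under 0.05. DESeq2 called 2 and 1 of them, and 670 of all genes. Of 8 alveolar type 2 markers 3 fell, and their part was not tested.

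**Figure D4:**
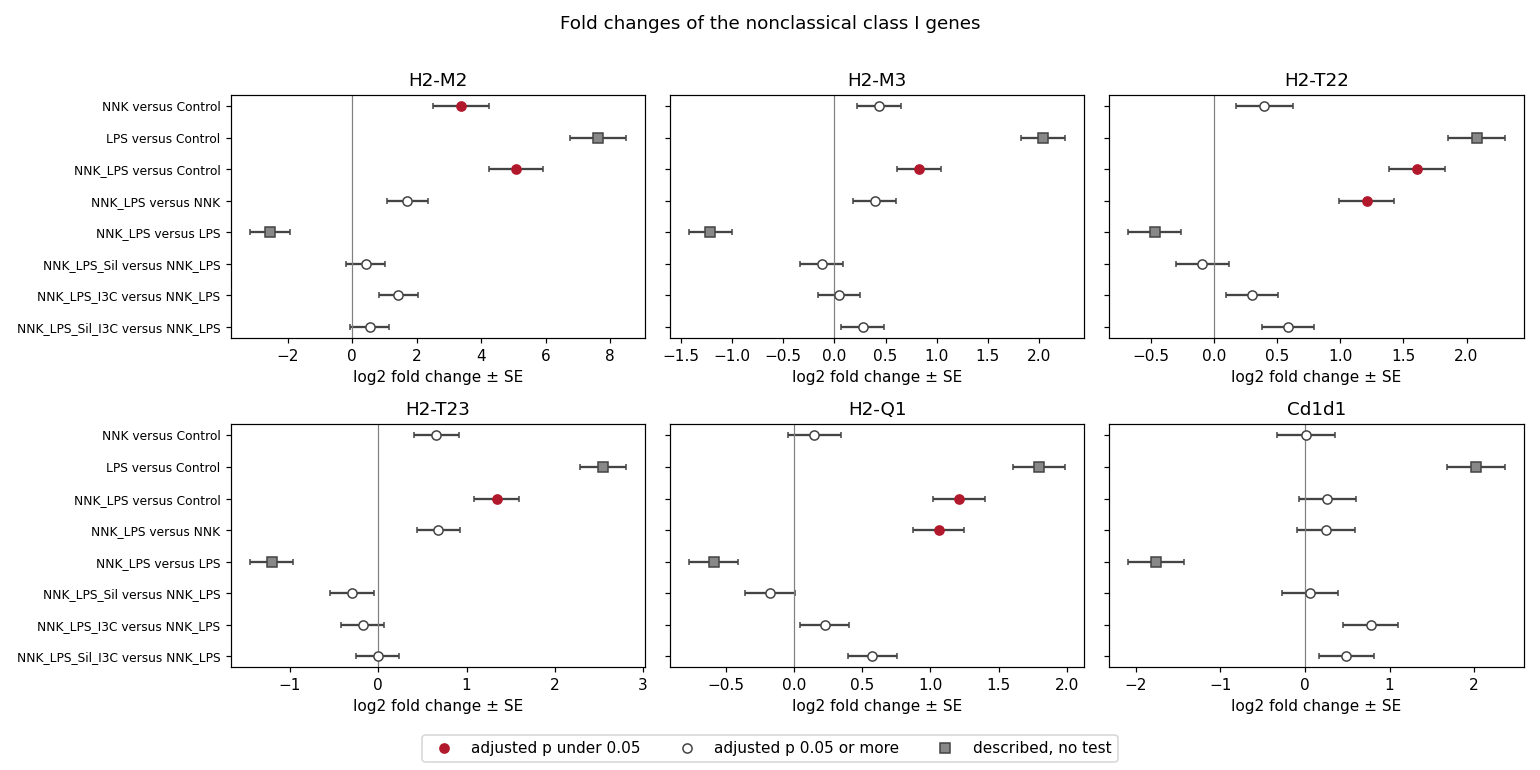
Log2 fold change ± SE of each gene in 8 comparisons (n = 3 libraries per group); filled circles passed an adjusted p of 0.05, open circles did not, and grey squares are described without a test. H2-M2 was called in NNK against Control, all genes but Cd1d1 in NNK_LPS against Control, H2-T22 and H2-Q1 in NNK_LPS against NNK, and none in the diet comparisons.

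The list of receptors and cells that read these molecules also held Fpr1 and Fpr2, which encode formyl peptide receptors. Many of its genes had low counts, but Fpr2 stood at 93.3 ± 15.9 CPM in LPS and Zbtb16 at 194 ± 162 CPM in NNK (SD, n = 3). Of the 12 tested, 11 were higher in LPS than in Control without overlap, beside 30.4% of all genes. In NNK_LPS against Control 2 rose, beside 12.0% of all genes called higher, the gamma chain constant genes Tcrg-C1 at 2.33 ± 0.65 (adjusted p = 0.0167) and Tcrg-C2 at 3.24 ± 1.05 (adjusted p = 0.0343). Klrc1, which encodes the NKG2A receptor for H2-T23, stood at 0.889 ± 0.633 CPM in Control, 5.65 ± 1.70 in LPS and 2.03 ± 0.665 in NNK_LPS (SD, n = 3). Zbtb16, a factor of NKT cells that other cell types also use, stood at 44.2 ± 27.1, 13.4 ± 4.96 and 90.7 ± 78.9 CPM in the same groups. Neither was called in NNK_LPS against Control (adjusted p = 0.198 and 0.533, edgeR). Among 11 interferon and NF-kB regulators, 10 were higher in LPS without overlap, beside the same 30.4%. In NNK_LPS against Control 3 rose, beside the same 12.0%, Ifngr2, a chain of the interferon gamma receptor, at 0.48 ± 0.11 (adjusted p = 0.00537), Ifng at 4.17 ± 1.38 (adjusted p = 0.0366), which had 1 count in all of Control, and Ciita, the transactivator of class II genes, at 1.12 ± 0.38 (adjusted p = 0.0407).

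The profile most like each gene over the 21 libraries was sought by the root mean square difference of centred log2 CPM. H2-M3 lay nearest to B2m (0.13), then H2-T10 (0.17) and Arhgdib (0.18). H2-T23 lay nearest to H2-Q6 (0.17), H2-Q4 (0.18) and H2-K1 (0.18). H2-T22 and H2-Q1 were each other's nearest (0.19), and the next for H2-T22 was Ly6c2 (0.29) and for H2-Q1 Clec4a3 (0.32). Cd1d1 lay nearest to Pstpip1 (0.17), Slc1a2 (0.21) and Ms4a6b (0.21). For H2-M2 the chemokine Ccl8 was nearest, at 0.79. H2-M2 also varied most, with an SD of 2.45 in log2 CPM against 0.65 to 0.84 for the other genes. The distances were not scaled by this spread, so they do not show that H2-M2 lacked a neighbour of like shape. These distances share libraries, depth and library sets between genes and are given as a description.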

How the data were processed

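RNA from 21 mouse lung samples was sequenced on TruSeq RNA (version 2) libraries, per the labels' protocols. The authors deposited 1 table of raw read counts per gene symbol, with no normalization. The genome build was mm10, per the submitters' processing notes, and the aligner, counting tool, annotation and treatment of reads that fit several genes are not stated in those notes or labels. Every count column matched 1 sample title. Group was taken from the labels, and the replicate number is the order of the titles within a group. The numbers that end the titles can differ from it.

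The tests used edgeR 4.0.16 and limma 3.58.1 under R 4.3.3. Scaling was by trimmed mean of M-values, with filterByExpr at a minimum count of 10. A robust quasi-likelihood fit of the 7 groups left 14 residual degrees of freedom. The common BCV, a measure of the spread between libraries that may be partly technical here, was 0.168. The code was tested on simulated data. SE is the log2 fold change divided by the square root of F. CPM are 1000000 times the count divided by the normalised library size, and steps between library sets use log2 CPM with a prior count of 2. Of 8 comparisons, 6 were tested, with p-values adjusted by Benjamini-Hochberg over 15770 genes, and the 2 that use the LPS libraries were described only. The members and lists were chosen with earlier results of these data known. Other genes named were B2m, Tap1, H2-K1, H2-D1, Nlrc5, up to 2 genes per list with the smallest adjusted p, and the 3 nearest profiles of each member, leaving out uncharacterised models. Klrc1, Zbtb16, Fpr1, Fpr2, Igj, Pax5, Cd79b, Ms4a1, Ciita and the genes that fell were named after their values were seen. Alternatives were relative log expression factors, no filter, DESeq2 1.42.0, the compared groups alone, a replicate block, a library set term, and leaving out each library. Adding the counts of close copies was chosen after seeing the data.

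Libraries with the same place in the order of their group deviated together in NNK_LPS_I3C and NNK_LPS only, with correlations of 0.16, 0.28 and 0.26. A replicate block changed no call of the 6 genes there. Transcript windows and coordinates came from GENCODE vM21 on GRCm38. Promoters came from RefSeq. One motif and 1 gene of the regulator list are not reported here.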

Additional observations from a re-analysis of the deposited data

How the results depend on the processing

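Among the 6 genes, the number called in NNK versus Control went from 1 to 2 in DESeq2 and from 0 to 2 when 1 library was left out. In NNK_LPS versus NNK it went from 2 to 0 with the library set term, with the 2 groups alone and with close copies added, and from 0 to 2 when 1 library was left out. In NNK_LPS versus Control it went from 5 to 0 with the library set term. The counts of genes without overlap in both comparisons with LPS stayed at 6 under each alternative run for them, and the diet comparisons stayed at 0. The set term rests on 2 split groups and widened the error of all 6 genes in NNK_LPS versus NNK and versus Control.

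Small uncalled log2 changes turned sign. For H2-T23 in NNK_LPS_Sil_I3C versus NNK_LPS they became 0.0025 with a replicate block, 0.19 with the set term, and 0.064 and 0.082 without NNK_LPS 1 or NNK_LPS_Sil_I3C 3. For Cd1d1 in NNK versus Control they became -0.097 with Cd1d2 added, and -0.045, -0.020 and -0.15 without Control 1, Control 2 or NNK 3, in a range up to 0.195 without Control 3. For Cd1d1 in NNK_LPS_Sil versus NNK_LPS they became -0.071 and -0.26 without NNK_LPS 2 or NNK_LPS_Sil 2, in a range up to 0.334 without NNK_LPS_Sil 3. In NNK_LPS_I3C versus NNK_LPS they became -0.093 and -0.12 for H2-M3 without NNK_LPS 2 or NNK_LPS_I3C 3, in a range up to 0.161, -0.017 for H2-T22 with NNK_LPS_I3C 1 alone, and -0.022 for H2-Q1 with H2-Q2 added. The cause was not tested.

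A replicate block left the number of the 6 genes called at 1, 5, 2, 0, 0 and 0 in the 6 tests and moved the count over all genes in NNK_LPS versus NNK from 15 to 37. Libraries in a replicate block share only their place in the order of their group. Outside NNK_LPS_I3C versus NNK_LPS, in no tested pair did every library correlate best with the library of its own place. DESeq2 called 492 genes in NNK_LPS versus NNK, 1042 with I3C and 670 with both agents, where edgeR called 15, 318 and 214. Depth limits H2-M2 in Control, at 15 counts in its lowest library, and 3 libraries per group limit all else.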
